A study of Mus musculus with 11 samples.

Results

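The genes described here are 10 mouse cytokine genes of the interleukin and TNF families: Il1a, Il1b, Il1rn, Il18, Il33, Tnf, Il6, Osm, Lif and Il11. They were taken as a list by symbol, and all 10 were found among the 25006 genes counted in each library. The study asked how loss of the lymphatic growth factor gene Vegfc from myeloid cells affects the heart after myocardial infarction (MI), in which a coronary artery was tied off permanently. RNA was sequenced from the left ventricle of 11 mice, with 1 library per mouse. The naive control group held the 2 libraries M44 and M45, and the naive Vegfc-deficient group held M34, M149 and M150. The MI control group held M006, M38 and M40, and the MI Vegfc-deficient group held M35, M900 and M913, with the infarcted tissue of both MI groups collected on day 9. Naive mice had no infarct, and a piece of ventricle of about the same mass and place was taken from them. Vegfc-deficient mice carried floxed Vegfc and LysMCre (Vegfc fl/fl ; LysMCre), which places Cre recombinase at the Lyz2 locus and deletes in macrophages, monocytes and neutrophils. Control mice were given the genotype Vegfc fl/fl in the sample labels, whereas the protocol text of the same labels and the study's methods call them LysMCre mice. If the genotype field is right, all 4 groups shared the floxed allele. Age is not given in the sources used here.

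Cytokines of these families start and steer the inflammatory reaction to dead tissue. IL-1α and IL-1β bind the same receptor and act through MYD88 and NF-kB, and the IL-1 receptor antagonist encoded by Il1rn blocks that receptor. IL-18 and IL-33 are relatives that alert lymphocytes and other immune cells, TNF acts through its own pair of receptors on NF-kB, and IL-6, oncostatin M, LIF and IL-11 share the receptor chain gp130 and act through JAK kinases and STAT3. After infarction they are known to come from arriving neutrophils and macrophages as well as from fibroblasts and other resident cells. The counts came from whole tissue, in which fewer cells of a type and less RNA per cell cannot be told apart.

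Total counts ran from 10824989 to 14585642 per naive library and from 14580756 to 26782728 per MI library, so the MI libraries were mostly deeper. Levels are given as CPM, the counts per 1000000 counts of a library after scaling by edgeR's TMM factors. A floor of 3 counts, below which a gene was taken as not detected, was 0.244 to 0.363 CPM in naive and 0.101 to 0.176 CPM in MI libraries. This floor and all counting intervals cover counting error only. The tissue label held in every library: the summed level of 6 cardiomyocyte markers was 48560 to 65145 CPM in naive and 1722 to 15584 CPM in MI libraries. Vegfc itself did not separate the genotypes and ran from 21.9 to 45.5 CPM over all libraries. Lyz2 was at 12.4 to 1392 CPM in the MI Vegfc-deficient libraries, below all MI control libraries. Of the naive libraries, M149, named here by its label throughout, went against its Vegfc-deficient label: its Lyz2 was at 4565 CPM, above both naive control libraries, while M34 and M150 were below both. Some results are therefore given with and without M149, where stated. All other results that use the naive Vegfc-deficient group include M149. Xist ran from 188 to 403 CPM in the MI libraries and from 0.624 to 11.8 CPM in the naive libraries, and Y-linked genes were high in the naive libraries alone, so MI and this contrast in Xist and Y-linked expression cannot be told apart in any comparison of MI with naive hearts.

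The stretch of 250 bases before the transcription start was read from RefSeq (GRCm38.p6) for the 4 genes on which most of the results turn. Il1a and Il1b had the widest gap between their highest library and the next, Tnf had 1 library far above the others in each MI group, and Il6 had the largest response to MI. Letters in capitals mark matches, on either strand, to AP-1 (TGANTCA), STAT (TTCNNNGAA), NF-Y (CCAAT), the TATA box (TATAAA) or the NF-kB consensus.
Il1a, minus strand, chr2:129309973-129310222: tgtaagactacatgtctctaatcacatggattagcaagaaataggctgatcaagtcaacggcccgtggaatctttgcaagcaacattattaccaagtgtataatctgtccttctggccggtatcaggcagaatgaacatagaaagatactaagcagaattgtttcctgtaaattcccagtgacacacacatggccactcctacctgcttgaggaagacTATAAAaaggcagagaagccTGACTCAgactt
Il1b, minus strand, chr2:129371140-129371389: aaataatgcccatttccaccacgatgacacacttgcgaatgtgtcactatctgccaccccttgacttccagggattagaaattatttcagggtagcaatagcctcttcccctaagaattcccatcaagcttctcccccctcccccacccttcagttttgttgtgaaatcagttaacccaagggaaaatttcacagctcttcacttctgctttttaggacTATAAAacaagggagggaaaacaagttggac
Tnf, minus strand, chr17:35202008-35202257: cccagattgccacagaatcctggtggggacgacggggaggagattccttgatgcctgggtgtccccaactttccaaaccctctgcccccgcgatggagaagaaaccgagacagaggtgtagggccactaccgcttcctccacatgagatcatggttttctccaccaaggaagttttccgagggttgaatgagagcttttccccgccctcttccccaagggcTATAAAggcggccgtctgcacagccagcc
Il6, plus strand, chr5:30012864-30013113: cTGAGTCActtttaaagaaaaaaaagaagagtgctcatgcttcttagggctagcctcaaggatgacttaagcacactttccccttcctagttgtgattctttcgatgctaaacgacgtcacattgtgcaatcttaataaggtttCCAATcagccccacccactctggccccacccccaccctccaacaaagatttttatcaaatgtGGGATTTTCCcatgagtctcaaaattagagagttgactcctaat
In Il1a, Il1b and Tnf the TATA box began 32, 31 and 29 bases before the start. The Il6 window held the only match to the NF-kB consensus among the windows of the 9 members that had an entry, beginning 44 bases before the start, and 5.0% of all 32851 mouse windows of this length held one. An AP-1 match stood in 5 of the 13 windows of the 9 members (Il1a, Il1rn, Il6, Lif and Il11), against 6.75% of all windows. A match to the TATA box letters, at any place in the window, stood in 6 of the 13 (Il1a, Il1b, Tnf, Il18 and Il33), against 12.4%. The Il18 match was on the reverse strand at -175 to -170 from the start. Il33 had a match at -203 to -198 and, in its other window, at -29 to -24. NF-Y matches were found in 4 of the 13 member windows and in 33.8% of all windows, and STAT matches in 0 of the 13 and in 7.02% of all windows. No match printed here overlapped another, the AP-1 letters read as a match on both strands, and some members had more than 1 window. The matches are a description of the letters alone.

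Set against gene length, as CPM per kilobase of exon, Il33 and Il18 were the most abundant members in naive hearts, with medians of 5.78 and 4.07 over the 5 libraries. Il1b followed at 2.01, Il1a at 1.49 and Tnf at 1.40. The ranges of Il33 and Il18 overlapped, as did those of Il1b, Il1a and Tnf, while Il18 and Il1b were separate. Il1rn, Osm, Lif, Il11 and Il6 had naive medians of 0.500, 0.359, 0.223, 0.171 and 0.112, and each of these neighbours overlapped in range. After MI, Il33 stayed first at a median of 27.0 over the 6 libraries, with a range of 18.7 to 50.6 that did not overlap that of Il18 (median 11, 8.44 to 14.0). Il1b (median 9.04) and Il1rn (median 8.26) came next and overlapped. Il6 moved from the tenth place to the fifth, at a median of 3.0 CPM per kilobase, and Il1a from the fourth place to the tenth, at 0.359.

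**Figure D1:**
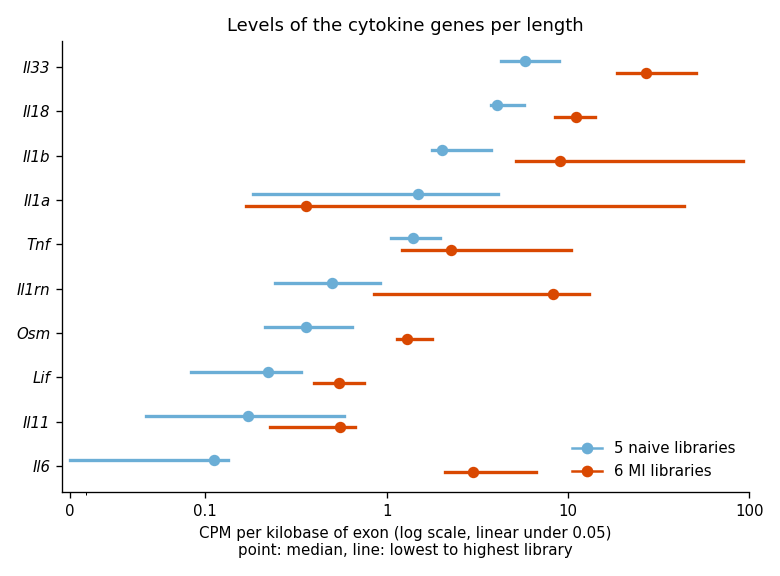
TMM-scaled CPM per kilobase of exon (x axis, log scale, linear under 0.05) of each cytokine gene in the 5 naive and 6 MI libraries, with the median as a point and the lowest to highest library as a line. Il33 had the highest median in both states, and the line of Il1a after MI reached from 0.168 to 43.6 through 1 library.

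In control mice, 6 of the 10 members rose after MI (Il1rn, Il6, Il18, Osm, Lif and Il33) and 0 fell, where 26.3% of all 14779 genes tested rose and 24.1% fell (edgeR's quasi-likelihood test, Benjamini-Hochberg adjusted p under 0.05). In Vegfc-deficient mice the same test called these 6 and Il1b higher, 7 of 10, and 0 lower, where 30.0% of genes rose and 27.7% fell. All 10 members passed the filter on low counts, for some of them through the MI libraries alone. Their median log2 fold change was 2.12 in control and 2.13 in Vegfc-deficient mice, beside medians of 0.13 and 0.097 over all genes tested. In control mice 9 members had every MI library above both naive libraries, as had 39.1% of all genes, and in Vegfc-deficient mice 6 members had every MI library above every naive library, as had 33.6% of all genes. Of the members that overlapped in Vegfc-deficient mice, Il1rn did so only through M149. Leaving out naive control M45 reduced the 6 calls in control mice to 4 (Il6, Il18, Osm and Il33), and leaving out M149 kept the calls in Vegfc-deficient mice at 7, with Il1a in place of Lif.

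**Figure D2:**
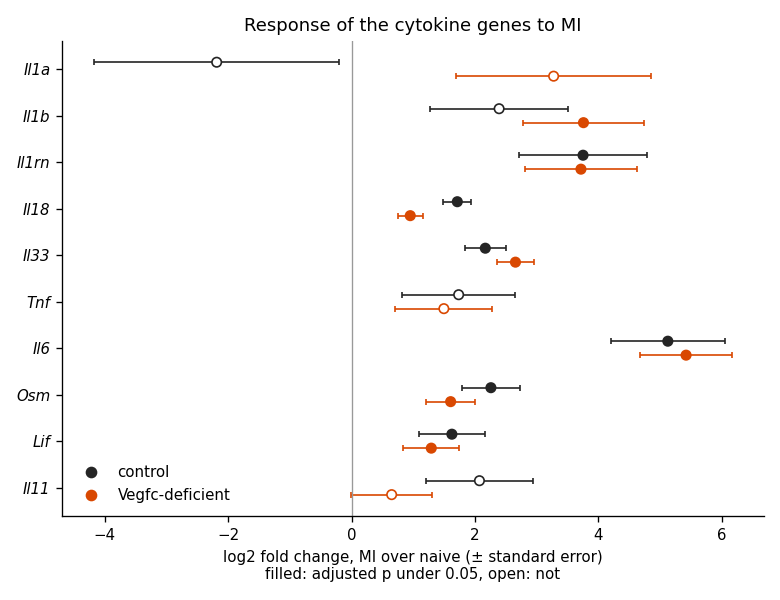
log2 fold change of MI over naive hearts (x axis) of each cytokine gene in control (black) and Vegfc-deficient (orange) mice, with the standard error from edgeR's fit as bars and filled points at an adjusted p under 0.05. Il6 had the largest change in both genotypes, and Il1a lay at -2.19 in control and 3.28 in Vegfc-deficient mice, both with wide errors.

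Il1a (ENSMUSG00000027399, chromosome 2, GRCm38 positions 129299610 to 129309972) encodes IL-1α, an alarm signal that dying cells release in active form. In naive hearts it was at 2.94 and 3.26 CPM in control M44 and M45, at 0.363 and 0.488 CPM in Vegfc-deficient M150 and M34, and at 8.14 CPM in the library labelled Vegfc-deficient M149. After MI it was at 0.609 to 0.770 CPM in the 3 control libraries, and at 0.331, 1.18 and 86.0 CPM in Vegfc-deficient M913, M35 and M900. All 3 MI control libraries thus lay below both naive control libraries, whereas the Vegfc-deficient groups overlapped. M900 held 2051 Il1a counts, and each of the other 10 libraries held at most 83. The log2 fold change after MI was -2.19 (standard error 1.99, edgeR adjusted p = 0.372) in control mice. It became a call (adjusted p = 0.00634) when edgeR was fitted to those 2 groups alone, the only one of 17 alternatives to do so, over which the adjusted p ran up to 0.542. In Vegfc-deficient mice it was 3.28 (standard error 1.58, edgeR adjusted p = 0.111) with all libraries, -2.05 without M900 and 6.05 without M149 (edgeR adjusted p = 0.0471, the only call among the alternatives, which ran up to 0.584).

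Chil3, a chitinase-like gene of macrophages named here after its values were seen, was high in the same naive libraries as Il1a. It was at 580 and 601 CPM in naive control M44 and M45 and at 1679 CPM in the library labelled M149, but at 26.0 and 54.2 CPM in M150 and M34 and at most 16.9 CPM after MI. Chil3 belongs to a list of 11 markers of alveolar macrophages and lung, all of them counted, whose sum was 587 and 609 CPM in the naive control and 28.8 to 1699 CPM in the naive Vegfc-deficient group. After MI the sum was 9.16 to 35.3 CPM in control and 8.41 to 28.8 CPM in Vegfc-deficient hearts. The naive sums were nearly all Chil3, and the rest of the list was mixed. Marco was at 3.48, 5.62 and 14.0 CPM in naive M44, M45 and M149, but at 0.242 and 0.488 CPM in M150 and M34. In MI libraries Marco was at 1.37 to 19.3 CPM, without passing. Scgb1a1 was at 1.34, 0.453 and 2.16 CPM in M44, M45 and M149, and at 0 and 0.163 CPM in M150 and M34. Scgb1a1 fell after MI in control and Vegfc-deficient mice (log2 fold change -5.44 and -4.39, edgeR adjusted p = 0.017 and 0.0238). In Vegfc-deficient mice the groups overlapped, and M149 was the only library of that genotype above the floor of 3 counts. By contrast, Ager rose after MI in control and Vegfc-deficient mice (log2 fold change 2.05 and 1.60, edgeR adjusted p = 0.0139 and 0.0216). Krt79 rose in control mice (1.87, edgeR adjusted p = 0.0219), and its 1.07 in Vegfc-deficient mice did not pass (adjusted p = 0.0801). The surfactant genes Sftpc, Sftpb, Sftpa1 and Sftpd, defining markers of lung epithelium, were at 0 in all 5 naive libraries. The part of these cells in the naive Il1a level was not tested.

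Il1b (ENSMUSG00000027398, chromosome 2, 129364570 to 129371139) encodes IL-1β, which is made as an inactive precursor and cut by caspase-1. It was at 4.73 and 3.62 CPM in naive control and at 3.39, 3.82 and 7.16 CPM in naive Vegfc-deficient libraries. In infarcted hearts it was at 12, 21.5 and 32.2 CPM in control M006, M38 and M40 and at 9.81, 12.9 and 175 CPM in Vegfc-deficient M35, M913 and M900. Every MI library lay above every naive library, and M900 was 5.44 times the next highest. The log2 fold change after MI was 2.39 (standard error 1.12, edgeR adjusted p = 0.113) in control mice and 3.76 (standard error 0.98, edgeR adjusted p = 0.0104) in Vegfc-deficient mice. Without M900 the latter was 1.22 and was still called, while the former stayed near its value at 2.35 and became a call (edgeR adjusted p = 0.00334, with alternatives up to 0.318). By limma-voom with quality weights the change in Vegfc-deficient mice was not called (adjusted p = 0.124, with alternatives down to 0.000626). Il1a and Il1b each overlap an antisense gene on the opposite strand (Gm14023 and Il1bos), and since the strand setting of the counting is not given in the sources used here, reads of a gene and its partner cannot be told apart.

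Il1rn (ENSMUSG00000026981, chromosome 2, 24336853 to 24351494), the receptor antagonist gene, was at 2.94 and 2.63 CPM in naive control and at 1.33, 2.77 and 5.10 CPM in naive Vegfc-deficient libraries. Its levels after MI were 10.9, 45.8 and 56.0 CPM in control M006, M38 and M40 and at 4.70, 45.6 and 72.5 CPM in Vegfc-deficient M35, M913 and M900. Within each genotype 2 MI libraries lay far above the third. M35 fell inside the naive range only through the 5.10 CPM of M149, as the other naive libraries were at 1.33 to 2.94 CPM. The sum of 12 macrophage and monocyte markers was 1730 to 2423 CPM in naive libraries, 2465 and 3439 CPM in M35 and M006, and 4664 to 6502 CPM in the other 4 MI libraries. The pair with the lowest Il1rn after MI thus also had the lowest sums. Ccr2, Plac8 and Ly6c2 did not share this order, while the other markers of the list did. Ccr2 was at 73.6 and 64.0 CPM in M35 and M006, above the 51.6 and 44.3 CPM of M900 and M913. Plac8 was lowest in M913, at 50.7 CPM, and Ly6c2 was lower in M913 (5.26 CPM) than in M006 (7.11 CPM). The part of macrophages and monocytes in the Il1rn level was not tested. Il1rn rose by a log2 fold change of 3.75 (standard error 1.04, edgeR adjusted p = 0.0177) in control and 3.72 (standard error 0.91, edgeR adjusted p = 0.00676) in Vegfc-deficient mice. The call in control mice was lost without either naive control library (edgeR adjusted p = 0.106 without M45 and 0.0958 without M44). Per kilobase, Il1rn was at 0.133 to 0.459 times the level of Il1b in naive libraries. After MI this ratio was 0.314, 0.733 and 0.599 in control M006, M38 and M40, and 0.165, 0.143 and 1.22 in Vegfc-deficient M35, M900 and M913. The highest and the lowest ratios after MI were both from Vegfc-deficient hearts.

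Il18 (ENSMUSG00000039217, chromosome 9, 50554827 to 50581840) encodes a caspase-1 substrate that drives interferon-γ production by T and NK cells. Its levels were the most even of the list: 4.19 and 3.90 CPM in naive control, 3.99, 5.69 and 5.88 CPM in naive Vegfc-deficient, 11.3, 14.1 and 14.5 CPM in MI control, and 8.70, 9.93 and 11.4 CPM in MI Vegfc-deficient libraries. All MI libraries lay above all naive libraries. Il18 rose by a log2 fold change of 1.71 (standard error 0.23, edgeR adjusted p = 0.000482) in control and 0.95 (standard error 0.20, edgeR adjusted p = 0.00278) in Vegfc-deficient mice, and both stayed called in all 17 alternatives. Il18 overlaps Bco2 and Tex12 on the other strand.

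Il33 (ENSMUSG00000024810, chromosome 19, 29925114 to 29960718) encodes a nuclear alarm cytokine stored in stromal and endothelial cells and released on damage. It was at 12.8 and 17.0 CPM in naive control and at 12.3, 16.7 and 25.8 CPM in naive Vegfc-deficient libraries. After MI it was at 53.9, 69.8 and 77.8 CPM in control M006, M38 and M40 and at 77.8, 120.3 and 146 CPM in Vegfc-deficient M913, M900 and M35. No MI library overlapped the naive range. Il33 rose by a log2 fold change of 2.17 (standard error 0.33, edgeR adjusted p = 0.000983) in control and 2.66 (standard error 0.29, edgeR adjusted p = 0.000101) in Vegfc-deficient mice, and both stayed called in all 17 alternatives. The sum of 6 fibroblast markers was 4169 to 5756 CPM in naive and 23705 to 35890 CPM in MI libraries, but they did not move as one. Col1a1, Col3a1, Postn and Tcf21 rose in both genotypes and Pdgfra rose in Vegfc-deficient mice only by this test, whereas Dcn was at 3026 to 3952 CPM in naive and 3189 to 4618 CPM in MI libraries and did not pass in either. Their part in the Il33 level was not tested.

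Tnf (ENSMUSG00000024401, chromosome 17, 35199381 to 35202007) encodes a macrophage and T cell cytokine that acts on most cell types. It was at 1.78 and 1.72 CPM in naive control and at 2.30, 2.69 and 3.24 CPM in naive Vegfc-deficient libraries. The MI levels were 1.99, 3.63 and 11.8 CPM in control M006, M40 and M38 and at 2.29, 3.81 and 17.1 CPM in Vegfc-deficient M35, M913 and M900. One library of each MI group thus stood far above the others, which lay at or just above the naive levels. Tnf did not pass the test in either genotype, with a log2 fold change of 1.74 (standard error 0.92, edgeR adjusted p = 0.149) in control and 1.5 (standard error 0.79, edgeR adjusted p = 0.128) in Vegfc-deficient mice. The change fell to 0.63 in control mice without M38 and to 0.15 in Vegfc-deficient mice without M900, and 0 of 17 alternatives called it in either genotype.

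Il6 (ENSMUSG00000025746, chromosome 5, 30013114 to 30019981), the founding gp130 cytokine and an inducer of the acute phase response, was hardly detected in naive hearts. The naive libraries held 1 and 3 counts in control M44 and M45 and 3, 0 and 4 counts in M149, M150 and M34, which is at most 0.326 CPM. After MI it was at 5.07, 6.82 and 7.75 CPM in control M38, M40 and M006 and at 5.76, 7.74 and 16.1 CPM in Vegfc-deficient M35, M913 and M900. All 6 MI libraries lay far above all 5 naive libraries. The ratio of summed counts, scaled by library size, was 35.4 (95% counting interval 13.7 to 130.5) in control and 45.3 (21.9 to 113) in Vegfc-deficient mice. On the log2 scale edgeR gave 5.13 (standard error 0.93, adjusted p = 0.000694) and 5.43 (standard error 0.74, adjusted p = 0.00011). Both calls held in all 17 alternatives.

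Osm (ENSMUSG00000058755, chromosome 11, 4236420 to 4241026) encodes oncostatin M, a product of neutrophils and macrophages that acts on cardiomyocytes and fibroblasts. It was at 0.484 to 1.47 CPM over the 5 naive libraries, at 2.91, 3.01 and 3.85 CPM in MI control and at 2.59, 2.73 and 4.03 CPM in MI Vegfc-deficient libraries. The naive and MI ranges did not overlap. Osm rose by a log2 fold change of 2.26 (standard error 0.47, edgeR adjusted p = 0.00347) in control and 1.61 (standard error 0.40, edgeR adjusted p = 0.00584) in Vegfc-deficient mice, called in all 17 alternatives.

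Lif (ENSMUSG00000034394, chromosome 11, 4257557 to 4272514), a gp130 cytokine known to protect cardiomyocytes, was at 1.16 and 0.362 CPM in naive control M44 and M45 and at 0.686 to 1.46 CPM in naive Vegfc-deficient libraries. After MI it was at 1.72, 2.10 and 3.27 CPM in control and at 2.12, 2.64 and 2.98 CPM in Vegfc-deficient libraries, all above the naive ones. The log2 fold change was 1.63 (standard error 0.54, edgeR adjusted p = 0.0284) in control and 1.29 (standard error 0.46, edgeR adjusted p = 0.0321) in Vegfc-deficient mice. In control mice the call was lost without M45 (1.03, edgeR adjusted p = 0.207) and without MI control M40 (1.32, adjusted p = 0.0783), and in a fit of these groups alone (adjusted p = 0.0717). In Vegfc-deficient mice it was lost without M149, M150, M913 or M900, each left out in turn, with adjusted p from 0.0704 to 0.0995.

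Il11 (ENSMUSG00000004371, chromosome 7, 4772373 to 4782859) encodes a gp130 cytokine of stromal cells with a known role in cardiac fibrosis, and had 8 to 33 counts per library after MI. It was at 0.357 and 0.181 CPM in naive control and at 0.0981, 0.651 and 1.21 CPM in naive Vegfc-deficient M149, M34 and M150. Its MI levels were 1.12, 1.17 and 1.18 CPM in control and at 0.470, 1.12 and 1.38 CPM in Vegfc-deficient libraries. The control groups were separate and the Vegfc-deficient groups overlapped. The log2 fold change was 2.07 (standard error 0.86, edgeR adjusted p = 0.0588) in control and 0.65 (standard error 0.66, edgeR adjusted p = 0.411) in Vegfc-deficient mice. The former passed in 6 of the 16 alternatives that gave a value, over which its adjusted p ran from 0.0209 to 0.264, and the latter in 0 of 16.

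**Figure D3:**
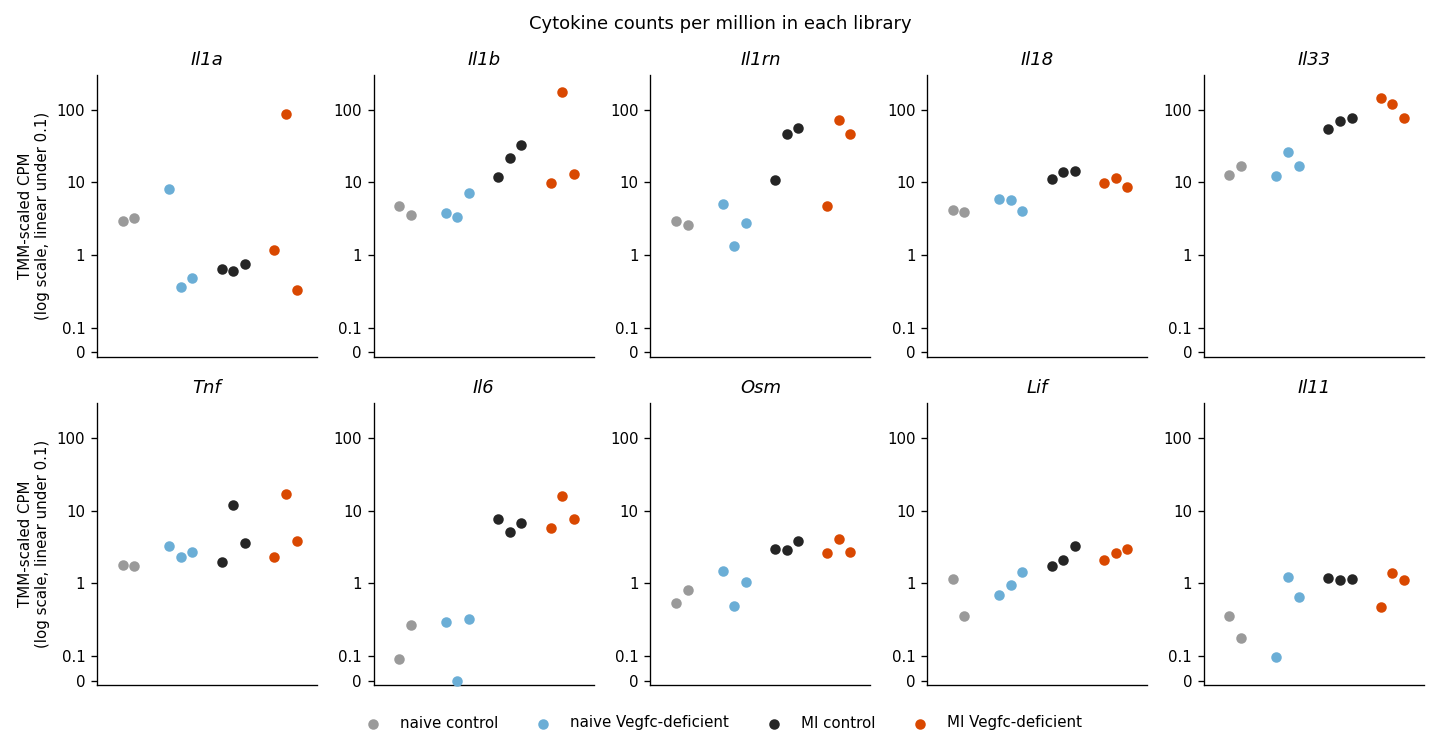
TMM-scaled CPM (y axis, log scale, linear under 0.1) of each cytokine gene in each of the 11 libraries, with 1 point per library and colours for the 4 groups. The point of M900 stands above its group in Il1a, Il1b, Tnf and Il6, and the point of M38 above its group in Tnf.

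After MI, 0 of the 10 members and 0% of all 14779 genes differed between the genotypes at the same threshold of edgeR's adjusted p, and 2 members (Il1a and Il33) and 1173 genes had an unadjusted p under 0.05. By the DESeq2 Wald test 62 genes passed, 0 of them a member. Il33 was the only member whose groups did not overlap, as in 12.1% of all genes. It was at 115 ± 34.5 CPM (SD, n = 3) in Vegfc-deficient and 67.2 ± 12.2 CPM (SD, n = 3) in control hearts, a log2 fold change of 0.77 (standard error 0.29, edgeR adjusted p = 0.585) that stayed between 0.56 and 0.99 when each library was left out. The lowest Vegfc-deficient and the highest control library were both at 77.8 CPM when rounded. Il18 went the other way, with a log2 fold change of -0.41 (standard error 0.19, edgeR adjusted p = 0.640), from -0.52 to -0.32 with each library left out.

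For the other IL-1 genes and Tnf the difference between the MI genotypes rested on single libraries. The log2 fold change of Il1a was 5.42 (standard error 1.69, edgeR adjusted p = 0.584) with all libraries and 0.15 without M900. That of Il1b was 1.59 (standard error 0.89) and turned to -0.93 without M900. That of Tnf was 0.41 (standard error 0.74), turned to -0.93 without M900 and reached 1.46 without MI control M38. Il1rn had one of 0.12 (standard error 0.79), from -0.57 without M900 to 0.65 without M35. Of the gp130 cytokines, Il6 had 0.60 (standard error 0.44), or 0.077 if M900 was left out. Osm, Lif and Il11 had differences of -0.063 (standard error 0.36), 0.13 (standard error 0.42) and -0.21 (standard error 0.59), and each changed sign when 1 library or another was left out. Their edgeR adjusted p ran from 0.676 to 0.982 over these 7 genes (Il1b, Tnf, Il1rn, Il6, Osm, Lif and Il11).

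**Figure D4:**
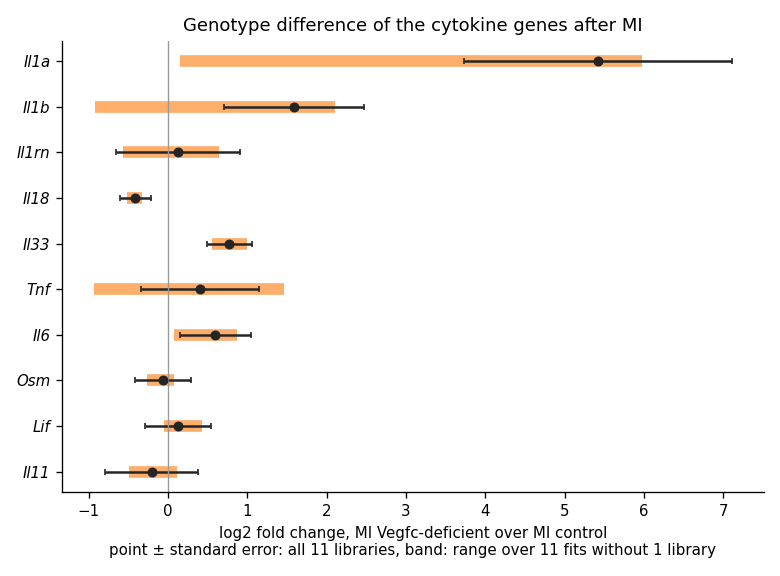
log2 fold change of Vegfc-deficient over control hearts after MI (x axis) of each cytokine gene with all 11 libraries (point, with the standard error from edgeR's fit), and the range over the 11 fits that each left out 1 library (band). The bands of Il1b, Il1rn, Tnf, Osm, Lif and Il11 cross 0, and that of Il1a reaches from 0.15 to 5.98.

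M900 had the highest level of the 6 MI libraries in 7 of the 10 members (Il1a, Il1b, Il1rn, Tnf, Il6, Osm and Il11), whereas it was the highest in 17.6% of all genes tested. M35, of the same group, had the lowest level in 4 members and was the lowest in 25.3% of all genes. Genes chosen after their values were seen were also highest in M900: the neutrophil chemokine gene Cxcl2 at 41.2 CPM against at most 8.51 CPM elsewhere, and the prostaglandin synthase gene Ptgs2 at 27.8 CPM against at most 15.0 CPM. The sum of 10 neutrophil markers, all counted, was 55.5 to 392 CPM in MI control, 46.5 to 233 CPM in MI Vegfc-deficient, 25.6 to 41.2 CPM in naive control and 81.9 to 118 CPM in naive Vegfc-deficient libraries. M900 held the 233 CPM and MI control M40 the 392 CPM. In M40, Il1a was at 0.770 CPM and Il1b at 32.2 CPM. The markers of this list differed. Ngp was at 18.3 CPM in M900 and 18.0 CPM in M40, and at most 1.02 CPM in the other MI libraries. Cxcr2 was at 4.4 and 3.16 CPM in the same pair, and at most 0.994 CPM in the other MI libraries. Csf3r was at 28.4 CPM in M900 but 28.7 CPM in M38, and Hdc at 7.88 CPM in M900 but 7.87 CPM in M35. The defining marker Ly6g was at 0 to 0.407 CPM throughout, and the part of neutrophils in the levels of M900 was not tested.

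M38, the MI control library with the highest Tnf of its group, stood apart in T and NK cell markers. The sum of the 7 that were counted was 150 CPM there, 15.2 to 28.8 CPM in the other 5 MI libraries and 5.71 to 14.5 CPM in naive libraries. Cd8a was at 33.8 CPM in M38 and at 2.05 to 5.74 CPM in the other MI libraries. Cd8a was named after its values were seen. M38 also had the highest sum of 12 macrophage and monocyte markers, at 6502 CPM against 2465 to 5175 CPM in the other MI libraries. The part of T and NK cells or of macrophages and monocytes in the Tnf level of M38 was not tested.

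In naive hearts, genotype made a difference past edgeR's test for 0 of the 10 members and 0% of all genes, and 0 members and 499 genes had an unadjusted p under 0.05. The DESeq2 Wald test called 14 genes, 0 of them a member. The edgeR adjusted p was 1 for all 10 members. Tnf was the only member whose groups did not overlap, at 2.74 ± 0.470 CPM (SD, n = 3) against 1.75 ± 0.044 CPM (SD, n = 2), as in 22.4% of all genes. Its log2 fold change was 0.65 (standard error 0.96), and 0.51 without M149. Il1a had one of -0.044 with and -2.81 without M149, and Il1rn one of 0.16 with and -0.39 without it. The remaining 7 members kept their sign without M149.

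A difference between the genotypes in their response to MI, tested as the interaction in edgeR, was called for 0 members and 0% of genes, with 1 member and 1226 genes at an unadjusted p under 0.05. By the DESeq2 Wald test 58 genes passed, 0 of them a member. The member was Il18, whose rise was smaller in Vegfc-deficient mice by 0.76 on the log2 scale (standard error 0.31, edgeR adjusted p = 0.563), and by 0.66 to 0.93 with each library left out. Il1a had an interaction of 5.46 (standard error 2.54, edgeR adjusted p = 0.606), which was 0.18 without M900.

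The receptors and decoys of these cytokines formed a list of 15 genes, all of them tested. In control mice 7 rose after MI, 2 fell and 6 did not pass, with a median log2 fold change of 0.76. In Vegfc-deficient mice 8 rose, 1 fell and 6 did not pass, with a median of 1.0, and in both comparisons the share called higher lay above the 26.3% and 30.0% of all genes. Without naive control M45 only 4 rose and 0 fell in control mice. The single gene that fell in both genotypes was Lifr, the LIF receptor chain, with log2 fold changes of -0.65 (standard error 0.19) and -0.75 (standard error 0.17).

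For IL-1, the signalling receptor gene Il1r1 was at 27.3 to 44.4 CPM in naive and 54.3 to 93.8 CPM in MI libraries, and rose by 1.19 and 1.34 in control and Vegfc-deficient mice (log2, edgeR adjusted p = 0.00282 and 0.000487). Its partner chain Il1rap, shared with the IL-33 receptor, rose by 1.53 and 1.27 (edgeR adjusted p = 0.000864 and 0.000634). The decoy receptor Il1r2 was at 0 to 0.981 CPM in naive and 1.99 to 5.61 CPM in MI libraries, and rose in Vegfc-deficient mice by 2.97 (edgeR adjusted p = 0.0112), while its 2.32 in control mice did not pass (adjusted p = 0.0501). Sigirr, an inhibitory receptor of the family, fell by 0.74 on the log2 scale in control mice (edgeR adjusted p = 0.045) and had -0.63 in Vegfc-deficient mice (adjusted p = 0.052). Il1rl1, the IL-33 receptor ST2, was at 2.67 to 5.28 CPM in all 11 libraries and did not pass in either genotype.

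The IL-18 receptor chains differed more between the groups. Il18r1 was at 0.268 and 1.09 CPM in naive control and at 1.30, 1.57 and 2.54 CPM in naive Vegfc-deficient libraries. In infarcted hearts it was at 5.81, 7.37 and 12 CPM in control M006, M40 and M38 and at 2.20, 4.11 and 5.11 CPM in Vegfc-deficient libraries. It rose in control mice by 3.63 (standard error 0.62, edgeR adjusted p = 0.00139), and its 1.09 in Vegfc-deficient mice (standard error 0.49, adjusted p = 0.0781) did not pass. Il18rap, the second chain, rose in both, by 3.53 (edgeR adjusted p = 0.000637) and 1.63 (adjusted p = 0.00673). The highest level of both chains was in M38, at 12 and 13.0 CPM, the library with the highest T and NK cell markers. Il18bp, the soluble IL-18 decoy, was at 91.8 CPM in M38 and at 12.9 to 29.3 CPM in the other 10 libraries, and did not pass in either genotype.

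Of the TNF receptors, Tnfrsf1a rose by 0.59 and 0.82 (edgeR adjusted p = 0.00954 and 0.000634), and Tnfrsf1b had 0.83 and 1.09 without passing. Among the gp130 receptors the shared chain Il6st was at 169 to 195 CPM in naive and 231 to 362 CPM in MI libraries. It rose by 0.48 in control and 1.0 in Vegfc-deficient mice (edgeR adjusted p = 0.0253 and 0.000234). After MI its Vegfc-deficient libraries (346 to 362 CPM) lay above its control libraries (231 to 302 CPM), and 12.1% of all genes had groups that did not overlap. The log2 difference of 0.43 (standard error 0.14, edgeR adjusted p = 0.584) did not pass. Osmr rose by 0.84 and 1.25 (edgeR adjusted p = 0.0098 and 0.000445). Il6ra rose in Vegfc-deficient mice by 0.94 (edgeR adjusted p = 0.00758) and had 0.41 in control mice (adjusted p = 0.222). Il11ra1, which has near-identical copies so that its counts are uncertain, did not pass in either.

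**Figure D5:**
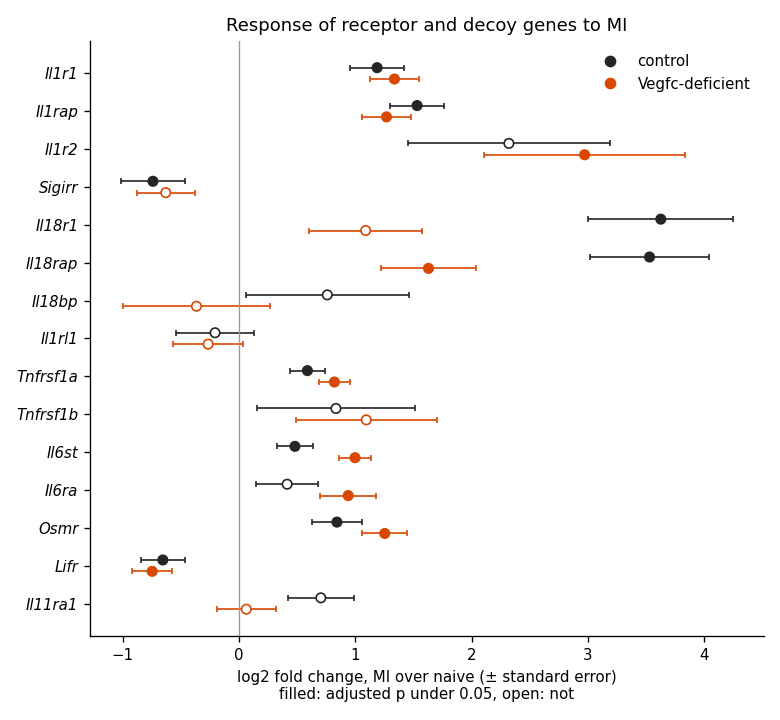
log2 fold change of MI over naive hearts (x axis) of 15 receptor and decoy genes in control (black) and Vegfc-deficient (orange) mice, with the standard error from edgeR's fit as bars and filled points at an adjusted p under 0.05. Il18r1 and Il18rap had the largest changes in control mice, 3.63 and 3.53, and the points of Lifr and Sigirr lie below 0 in both genotypes.

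The lists that follow are to be read against the 26.3% of all genes that rose and the 24.1% that fell in control mice, the 30.0% and 27.7% in Vegfc-deficient mice, and the medians over all genes of 0.13 and 0.097. Genes that process or release the members rose in 9 of 11 cases in control and 6 of 11 in Vegfc-deficient mice, and 0 fell, with medians of 1.37 and 0.55. These counts were lower without single libraries: 4 without M45 or without M44 in control mice, and 3 without M150, M913 or M900 in Vegfc-deficient mice. The inflammasome sensor Mefv rose from at most 0.784 CPM in naive to 3.76 to 11.7 CPM in MI libraries. Nlrp3, the sensor of sterile damage, rose by 3.07 (standard error 0.67, edgeR adjusted p = 0.00494) in control and 2.66 (standard error 0.60, adjusted p = 0.0035) in Vegfc-deficient mice. Nlrp1b rose by 2.07 and 2.42 (edgeR adjusted p = 0.00469 and 0.000783), and the caspase gene Casp4 by 1.42 in control mice (adjusted p = 0.00583) against 0.28 in Vegfc-deficient mice (adjusted p = 0.413).

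Of 26 signal transducers, 10 rose and 1 fell in control mice and 12 rose and 0 fell in Vegfc-deficient mice, with medians of 0.28 and 0.40, where 26.3% and 30.0% of all genes rose and 24.1% and 27.7% fell. The 10 became 4 without M45 and 6 without M38. Those with the smallest p were Nfkb1, a subunit of NF-kB, which rose by 0.85 (standard error 0.12, edgeR adjusted p = 0.000517) and 1.23 (standard error 0.11, adjusted p = 3.87e-05), Stat3 (0.54 and 1.07), the IL-1 receptor kinase Irak4 (0.91 and 1.07) and the JAK family kinase Tyk2 (0.95 and 0.73). All 4 passed in both genotypes.

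Genes known to be induced through NF-kB rose in 6 of 16 tested cases and fell in 2 in control mice, and rose in 9 and fell in 1 in Vegfc-deficient mice, with medians of 0.81 and 0.93. The 6 became 3 without M45, and 26.3% of all genes rose in control and 30.0% in Vegfc-deficient mice. The adhesion molecule Vcam1 rose by 1.74 and 1.55 (edgeR adjusted p = 0.000245 and 8.87e-05), and the NF-kB regulators Nfkbiz and Nfkbie rose in both genotypes as well. Sod2, the mitochondrial superoxide dismutase, fell by 2.77 and 2.50 on the log2 scale (edgeR adjusted p = 0.000597 and 0.000408), from 744 to 1058 CPM in naive to 72.4 to 234 CPM in MI libraries. Cardiomyocyte markers were lower in the same libraries, and their part in the Sod2 level was not tested.

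Genes known to be induced through STAT3 rose in 8 of 14 tested cases in each genotype and 0 fell, with medians of 1.38 and 1.10. The 8 became 5 in control mice without M45. Timp1, an inhibitor of matrix proteases, rose from 13.2 to 22.1 CPM in naive to 155 to 417 CPM in MI libraries, by 4.14 (standard error 0.38, edgeR adjusted p = 0.0002) and 4.07 (standard error 0.34, adjusted p = 4.5e-05). The acute phase gene Serpina3n rose by 2.13 and 3.70 (edgeR adjusted p = 0.00757 and 0.000175). The feedback inhibitor Socs3 rose by 1.91 and 1.37 and the pentraxin gene Ptx3 by 3.74 and 3.29, with edgeR adjusted p from 0.000791 to 0.00171.

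Other ligands of the 3 families rose in 10 of 16 tested cases in control and 8 of 16 in Vegfc-deficient mice, and 0 fell. Their median was 2.19 in control mice, or 1.94 with the 3 genes at 0 in both naive control libraries (Il1f9, Tnfsf4 and Tnfsf8) set to the floor of 3 counts per library, and 1.60 in Vegfc-deficient mice. Tnfsf14, a TNF family ligand known to act on T cells, rose from at most 0.488 CPM to 1.12 to 5.27 CPM. Tnfsf8 and Tnfsf4 reached 1.72 to 3.75 and 0.764 to 2.60 CPM after MI and were at 0 in both naive control libraries.

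Of the other interleukins and colony-stimulating factors, 8 of 18 were tested. In control mice 4 rose and 2 fell, and in Vegfc-deficient mice 2 rose and 1 fell, with medians of 0.80 and 0.71. The 2 of 8 that rose in Vegfc-deficient mice are a share below the 30.0% of all genes, and the 2 of 8 that fell in control mice are a share near the 24.1% of all genes. Without either naive control library 1 rose and 0 fell in control mice. Il15, a growth factor of NK and memory T cells, fell by 0.92 and 2.30 on the log2 scale (edgeR adjusted p = 0.0176 and 8.92e-05). Naive Il15 was at 55.6 and 60.4 CPM in control and at 117.6 to 143.5 CPM in Vegfc-deficient libraries, without passing edgeR's test. After MI it was at 19.7 to 37.5 CPM, and the genotypes overlapped. The larger fall in Vegfc-deficient mice thus started from a higher naive level. Csf1, the macrophage growth factor gene, rose by 0.60 and 0.85 (edgeR adjusted p = 0.00183 and 0.000103). Il16 rose in control mice by 0.50 (edgeR adjusted p = 0.0146) and had 0.18 in Vegfc-deficient mice (adjusted p = 0.241). Il34 rose in control mice by 1.02 (edgeR adjusted p = 0.0214) and had 0.65 in the other genotype (adjusted p = 0.0653). Between the genotypes 0 genes of any of these lists passed, in MI or in naive hearts.

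Across the 6 MI libraries the genes with the pattern most like each member were found by Pearson's r of log2 CPM among 13555 genes with a mean of at least 1 CPM there. With 6 libraries, of which M900 often stood apart, and so many candidates, these r describe the libraries only. Il1rn was most like Mctp1 (r = 0.999, Spearman's rho = 1, and r = 0.976 without the 2 libraries farthest from the median of Mctp1), Ptafr (r = 0.998), the receptor for platelet-activating factor on myeloid cells, and Edem1 (r = 0.996). Osm was most like Zfp148 (r = 0.989), C5ar1 (r = 0.984), the receptor of complement C5a on neutrophils and macrophages, and Il1f9 (r = 0.972), which encodes IL-36γ. C5ar1 was at 69.0 and 67.0 CPM in M40 and M900 and at 27.9 to 37.8 CPM in the other MI libraries. Lif was most like Lrp1 (r = 0.992), Vat1 and Nckap5l, and Il33 was most like Tgfbr2 (r = 0.991), a TGF-β receptor chain, F10 and Fgf18. Il1b was most like Slc7a11 (r = 0.981), the cystine transporter gene, which was at 21.9 CPM in M900 and at most 3.16 CPM in the other MI libraries, and Akap11 and Map3k7 followed. For Il1a the most alike were Ythdc2 (r = 0.985), Akap10 (r = 0.984) and Togaram1 (r = 0.980), and r turned to -0.50 and -0.81 for the latter pair without the 2 farthest libraries. Il6 was most like Hnrnpul2, Pds5a and Top1, Tnf like Osgin1, Naa25 and Erlin1, Il18 like Foxred2, Fkbp1b and Tmem167, and Il11 like Sar1a, Agps and Trim27, with r from 0.975 to 0.995. For Il11, r fell to 0.133 with Agps and 0.27 with Trim27 without the 2 farthest libraries, and for the other 26 pairs of this kind it was 0.643 or higher.

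Among the members themselves, Il1a and Il1b had r = 0.895 over the 6 MI libraries, Il1a and Il6 r = 0.863, Il1b and Osm r = 0.868, and Il1rn and Il11 r = 0.813. Il33 had r between -0.58 (with Il11) and 0.54 (with Il1a) with the other 9, and Il18 had r between -0.30 and 0.53. These points share the library and its depth, and M900 lies at the high end of most pairs.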

How the data were processed

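Libraries were made from left ventricular RNA with a stranded mRNA kit and sequenced on an Illumina instrument. The deposited values were whole-number counts of reads per gene, not normalized, which the authors made from their reads. The submitters' processing notes name cutadapt 1.13, STAR, HTSeq 0.6.1p1, DESeq2 1.14.1 and the build mm10, without stating the role of each. The annotation release and the strand setting of the counting are not given in the sources used here. Of 25006 gene IDs, 24942 were matched to GENCODE M21.

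Genes were filtered by edgeR's filterByExpr (14779 kept), scaled by TMM and fitted in 1 quasi-likelihood model with the 4 groups over all 11 libraries (edgeR 4.0.16, R 4.3.3), with Benjamini-Hochberg adjustment over all genes tested and a threshold of 0.05. The standard errors came from the same fit. Alternatives were DESeq2 size factors, the DESeq2 Wald test (DESeq2 1.42.0), limma-voom with quality weights (limma 3.58.1), no filter, a filter at a mean of 1 CPM, a fit of the compared groups alone, a threshold of 0.01 and leaving out each library. The fit was tested on simulated data. Since 1 library was made per mouse, p-values measure the spread between these mice. The members and the gene lists were chosen with earlier results of these data known. Genes were named by a rule: all members, all their receptors, the up to 4 genes of each other list with the smallest p past the threshold in an MI comparison, and the 3 genes most alike to each member over the MI libraries. Other names are given as chosen after their values were seen. One gene that the rule names is not reported here.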

Additional observations from a re-analysis of the deposited data

Results flagged for a closer look

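The genes for both chains of the IL-18 receptor had libraries ordered by genotype in opposite directions in MI and naive hearts. By edgeR's adjusted p, 0 genes differed between the genotypes in either state. Groups that did not overlap by genotype were seen in 12.1% of all genes after MI and in 22.4% in naive hearts. For Il18r1 all 3 MI Vegfc-deficient libraries (2.20 to 5.11 CPM) lay below all MI control libraries (5.81 to 12 CPM), whereas all 3 naive Vegfc-deficient libraries (1.30 to 2.54 CPM) lay above both naive control libraries (0.268 and 1.09 CPM). The log2 difference of the responses was -2.54 (standard error 0.79), with an edgeR adjusted p of 0.543, so it did not pass. It stayed between -3.85 (without naive control M45) and -1.85 (without naive control M44) when each library was left out, alternatives chosen after seeing the data. For Il18rap the order of the libraries was the same, from 3.6 to 5.20 CPM against 5.87 to 13.0 CPM after MI and from 0.981 to 2.12 CPM against 0.544 and 0.892 CPM in naive hearts. Its log2 difference of responses was -1.90 (standard error 0.66, edgeR adjusted p = 0.543), between -2.29 and -1.39 with each library left out.

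MI control M38, with the highest level of both chains, also had the highest sum of T and NK cell markers (150 CPM). Without it the genotype difference after MI was -0.77 instead of -1.15 for Il18r1 and -0.35 instead of -0.85 for Il18rap on the log2 scale. Without the library labelled naive Vegfc-deficient M149 the naive difference was 1.47 for Il18r1 and 1.28 for Il18rap. The part of T and NK cells in either gene's levels was not tested.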

How the results depend on the processing

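Of the members' log2 fold changes recomputed under the alternatives, 155 of 169 after MI in control mice and 162 of 169 in Vegfc-deficient mice kept their direction and their side of the threshold. The number of all genes called after MI in control mice was 7450, and 4798 at an adjusted p under 0.01. Leaving out each library moved it between 4574 and 7636, and the number of members called between 4 and 7. The genotype difference after MI, called for 0 genes by edgeR, was called for 62 by DESeq2 and for 0 to 1 with each library left out. In naive hearts DESeq2 called 14, limma-voom 6 and a fit of those groups by themselves 2, and the fits without 1 library gave 0 to 17, the 17 without M149. The interaction was called for 58 genes by DESeq2 and 0 to 1 with each library left out. No member was called for genotype or interaction under any of these. With limma-voom Il1rn turned to -0.12 for genotype in naive hearts and to 0.60 for the interaction. With each library left out, the log2 fold change after MI of Il1a in Vegfc-deficient mice ran from -2.05 to 6.05. For genotype after MI it ran from -0.93 to 2.10 for Il1b, -0.57 to 0.65 for Il1rn, -0.93 to 1.46 for Tnf, -0.27 to 0.076 for Osm, -0.049 to 0.43 for Lif and -0.50 to 0.11 for Il11. For genotype in naive hearts it ran from -2.81 to 0.49 for Il1a, -0.21 to 0.42 for Il1b, -0.39 to 0.48 for Il1rn, -0.044 to 0.50 for Il33, -0.28 to 1.26 for Il6 and -0.14 to 1.51 for Lif. For the interaction it ran from -1.13 to 1.88 for Il1b, -0.72 to 0.51 for Il1rn, -0.66 to 0.88 for Il6, -1.39 to 0.27 for Lif and -1.57 to 0.82 for Tnf. The cause was not tested. Where leaving out a naive control library left 1, that library was assumed to vary like the other groups. DESeq2 size factors moved the median log2 fold change of all genes after MI from 0.13 to 0.066 in control and from 0.097 to 0.040 in Vegfc-deficient mice. Naive Il6 and Il11 lay near the floor of 3 counts. No paired analysis was possible because the labels number the mice without any number shared between groups.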
